A study of Mus musculus with 4 samples.

Results

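The 8 genes described here, Fos, Fosb, Fosl1, Fosl2, Jun, Junb, Jund and Atf3, encode subunits of the transcription factor AP-1. They were chosen by name, as 8 of the 32287 gene features counted, and were followed across every cell class that markers defined in an injured and an uninjured spinal cord library. The question was which of them were higher in astrocytes than in other cells, and which were high in all classes or moved with the genes that tissue dissociation is known to induce. AP-1 is a dimer of leucine zipper proteins. Jun proteins pair with each other or with Fos proteins, which cannot form dimers among themselves, and Atf3 pairs with Jun proteins or with itself. Most of the genes are immediate early genes, transcribed within minutes of growth factors, stress or wounding without new protein synthesis, whereas Jund is transcribed in most resting cells and Fosl1 and Fosl2 usually follow later and last longer. Enzymatic digestion of tissue induces the same genes, so their RNA in dissociated cells can come from the animal or from the preparation.

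Both groups were Cx30-Tom mice, in which Cx30-driven Cre labels astrocytes and other Cx30-expressing cells with tdTomato after tamoxifen, and both received an intravenous library of enhancer adeno-associated viruses before the experiment. The injured group was sampled at 3 days after a contusion of the cord, as a 5 mm segment around the epicentre, and the uninjured group at the same level. Tissue was cleared of meninges, digested with papain and triturated mechanically, and sorted tdTomato+ cells were counted by 3′ single-cell RNA sequencing. The methods state that animals were pooled and that each condition held both sexes, but almost no uninjured cell scored female (counts below). The labels give 1 gene library per condition, so no difference between conditions below has a replicate check, no p-values were computed, and injury cannot be told apart from any other difference between the libraries. By the methods the animals entered the study as young adults.

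The positions of the genes are those of GENCODE M21 on GRCm38. Fos is at chr12:85473890-85477273 on the plus strand, Jun at chr4:95049034-95052222 on the minus strand, and Atf3 at chr1:191170296-191218039 on the minus strand. Fosb is at chr7:19302696-19310051 on the minus strand, Fosl1 at chr19:5447547-5455946 on the plus strand and Fosl2 at chr5:32135801-32157842 on the plus strand. Junb at chr8:84974484-84978718 on the minus strand and Jund at chr8:70698949-70700616 on the plus strand share a chromosome. UMIs were summed over each gene, so isoforms were not separated. On the other strand Fosl1 overlaps Ccdc85b, Junb Prdx2, Atf3 Gm24748, Jun Junos and Jund Gm11175.

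Promoters are shown because Fos, Jun, Junb and Atf3 were high in the same cells as other immediate early genes in the results below. Fosb was too, but its promoter is not printed. RefSeq (GRCm38.p6) gave the 250 bases before the start of 7 of the 8 genes. Capitals mark matches, on either strand, to the TATA box TATAAA, to the 8-base AP-1 or CRE-like site TGACNTCA and to its CRE core TGACG, the last of which was added after the sequences were seen. These are the 4 promoters, written 5′ to 3′ on the strand of the gene.
Fos, chr12:85473640-85473889, plus strand: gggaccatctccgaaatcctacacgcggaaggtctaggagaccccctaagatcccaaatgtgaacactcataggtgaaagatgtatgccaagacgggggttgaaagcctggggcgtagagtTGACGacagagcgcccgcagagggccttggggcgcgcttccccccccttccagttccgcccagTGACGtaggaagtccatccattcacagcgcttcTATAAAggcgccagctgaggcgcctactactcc
Jun, chr4:95052223-95052472, minus strand: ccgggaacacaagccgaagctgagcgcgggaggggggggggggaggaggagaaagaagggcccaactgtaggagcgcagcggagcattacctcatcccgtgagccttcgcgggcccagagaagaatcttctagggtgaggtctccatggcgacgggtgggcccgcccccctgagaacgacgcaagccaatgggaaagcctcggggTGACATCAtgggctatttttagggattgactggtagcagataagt
Junb, chr8:84978749-84978998, minus strand: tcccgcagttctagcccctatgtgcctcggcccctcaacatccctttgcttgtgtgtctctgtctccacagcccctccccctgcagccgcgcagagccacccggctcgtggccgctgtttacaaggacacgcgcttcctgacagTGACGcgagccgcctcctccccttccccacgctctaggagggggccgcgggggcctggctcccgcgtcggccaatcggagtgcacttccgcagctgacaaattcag
Atf3, chr1:191183334-191183583, minus strand: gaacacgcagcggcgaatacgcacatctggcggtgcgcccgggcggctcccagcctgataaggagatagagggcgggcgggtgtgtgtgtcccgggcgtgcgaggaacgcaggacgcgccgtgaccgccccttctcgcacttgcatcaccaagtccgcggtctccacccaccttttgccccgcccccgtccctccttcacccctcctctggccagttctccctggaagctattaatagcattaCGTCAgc
The RefSeq starts of Fos and Jun are those of the positions above and those of Junb and Fosb lie close to them. RefSeq places the starts of Atf3 and Fosl2 inside the spans given above and that of Jund before its span, so the counts over promoters hold for the RefSeq starts alone. The AP-1 site TGACTCA was in none of the 7 promoters and in 4.46% of 32851 promoters of that length, the full CRE TGACGTCA in none and in 1.55%, and the CArG box of serum response factor in none and in 1.47%. TATAAA stood 33 to 28 bases before the Fos start and in 12.4% of all promoters. TGACNTCA was found in Jun, as TGACATCA 45 to 38 bases before the start, and in 7.49% of all. TGACG was found in 4 of the 7, Fos, Fosb, Junb and Atf3, and in 17.8% of all. A match is a match of letters only, and elements further upstream lie outside these windows.

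Cells between 500 and 50000 gene UMIs (unique molecules) were kept, which gave 8499672 gene UMIs in 879 cells of the injured library and 15543460 in 4159 cells of the uninjured one. Median depth was 6816 and 3343 gene UMIs per cell, and 7 cell barcodes occurred in both. Clustering without the 8 genes gave 13 clusters, of which 11 were named. Astrocyte-like cells numbered 386 and 2889 (injured, then uninjured), microglia-like 126 and 31, ependymal-like 143 and 31, endothelial-like 70 and 26, and fibroblast-like 43 and 95. Oligodendrocyte precursor-like (OPC-like) cells numbered 41 and 14, and mural-like cells 13 and 3, so these had too few uninjured cells for a comparison between conditions. Astrocyte-like cells were thus 43.9% of injured and 69.5% of uninjured cells after the tdTomato sort. All 10 markers of each class were found in it, and the 10 astrocyte markers summed to 10876 CPM (UMIs per 1000000 gene UMIs) in injured astrocyte-like cells. Another 57 and 1070 cells carried astrocyte markers but had neuron genes in the lead and stayed unnamed. Cells scored male numbered 315 and female 250 in the injured library, against 2770 and 2 in the uninjured one. Intervals below are 95% intervals that cover counting error only.

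In the injured library AP-1 transcripts were far lower in astrocyte-like cells than in the other classes. The 8 genes summed to 448 CPM in astrocyte-like cells, against 2835 in ependymal-like, 2986 in OPC-like, 3569 in microglia-like, 4090 in fibroblast-like and 8589 CPM in endothelial-like cells. In the uninjured library the sum was 150 CPM in astrocyte-like cells and between 5166 and 12633 CPM in fibroblast-like, ependymal-like, endothelial-like and microglia-like cells. Astrocyte-like cells were thus the class with the lowest sum in both libraries.

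Fos, the founding partner of Jun, was measured at 123 CPM (109 to 138) in injured astrocyte-like cells, 683 in microglia-like, 1112 in OPC-like, 1288 in ependymal-like, 1314 in fibroblast-like and 2366 CPM (2257 to 2479) in endothelial-like cells. Only the ependymal-like and fibroblast-like levels, next to each other in that order, were not separated by their counting error. Fosb, a close relative of Fos, was likewise lowest in astrocyte-like and highest in endothelial-like cells, with 4.97 CPM (2.48 to 8.90) and 587 CPM (534 to 645). Between them stood ependymal-like cells at 99.2, OPC-like at 158, microglia-like at 178 and fibroblast-like at 567 CPM, the last not separated from endothelial-like cells, nor OPC-like from microglia-like.

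The 2 Fos-related antigens, Fosl1 and Fosl2, lack the strong activation domain of Fos and Fosb, and both were rare. Fosl2 reached 48.1 CPM in endothelial-like, 46.6 in microglia-like and 37.4 in fibroblast-like cells of the injured library, and was low in astrocyte-like (6.78), ependymal-like (5.94) and OPC-like cells (3.09 CPM, 3 UMIs). The 3 low classes were not separated from each other. Microglia-like cells were not separated from endothelial-like cells, nor fibroblast-like from microglia-like cells. Fosl1 instead had its highest levels in astrocyte-like cells at 15.4 CPM (10.6 to 21.5, 34 UMIs) and in fibroblast-like cells at 15.2 CPM (7.61 to 27.3, 11 UMIs). Endothelial-like cells had 8.01, ependymal-like 3.57, microglia-like 3.17 and OPC-like cells 3.09 CPM, from 6, 6, 6 and 3 UMIs.

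Among the Jun genes, Jun itself was at 125 CPM (110 to 140) in injured astrocyte-like cells, with 652 CPM in ependymal-like, 708 in fibroblast-like, 784 in microglia-like, 968 in OPC-like and 2527 CPM in endothelial-like cells. Junb, often a weaker activator that can restrain Jun, was at 52.4 CPM (43.3 to 62.9) in astrocyte-like cells, and the next class up, ependymal-like cells, had 116 CPM. OPC-like cells had 300.2, fibroblast-like 704, microglia-like 715 and endothelial-like cells 1166 CPM of Junb. Jund was at 101 CPM (88.4 to 115) in astrocyte-like cells and ran from 437 in OPC-like through 515, 567 and 649 in ependymal-like, microglia-like and fibroblast-like cells to 1331 CPM in endothelial-like cells. For all 3 genes astrocyte-like cells were the lowest class and endothelial-like cells the highest.

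Atf3, a stress-responsive gene of the ATF and CREB family that marks injured neurons and stressed cells, was highest in microglia-like cells at 593 CPM (559 to 629), not separated from endothelial-like cells at 555 CPM. Ependymal-like cells had 156 CPM, fibroblast-like 94.3, astrocyte-like 19.0 (13.7 to 25.7, 42 UMIs) and OPC-like cells 4.13 CPM (4 UMIs). OPC-like cells, which had high Fos and Jun, were the 1 class below astrocyte-like cells for Atf3, and the ratio of astrocyte-like to OPC-like cells was 4.60 (1.67 to 17.7).

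**Figure D1:**
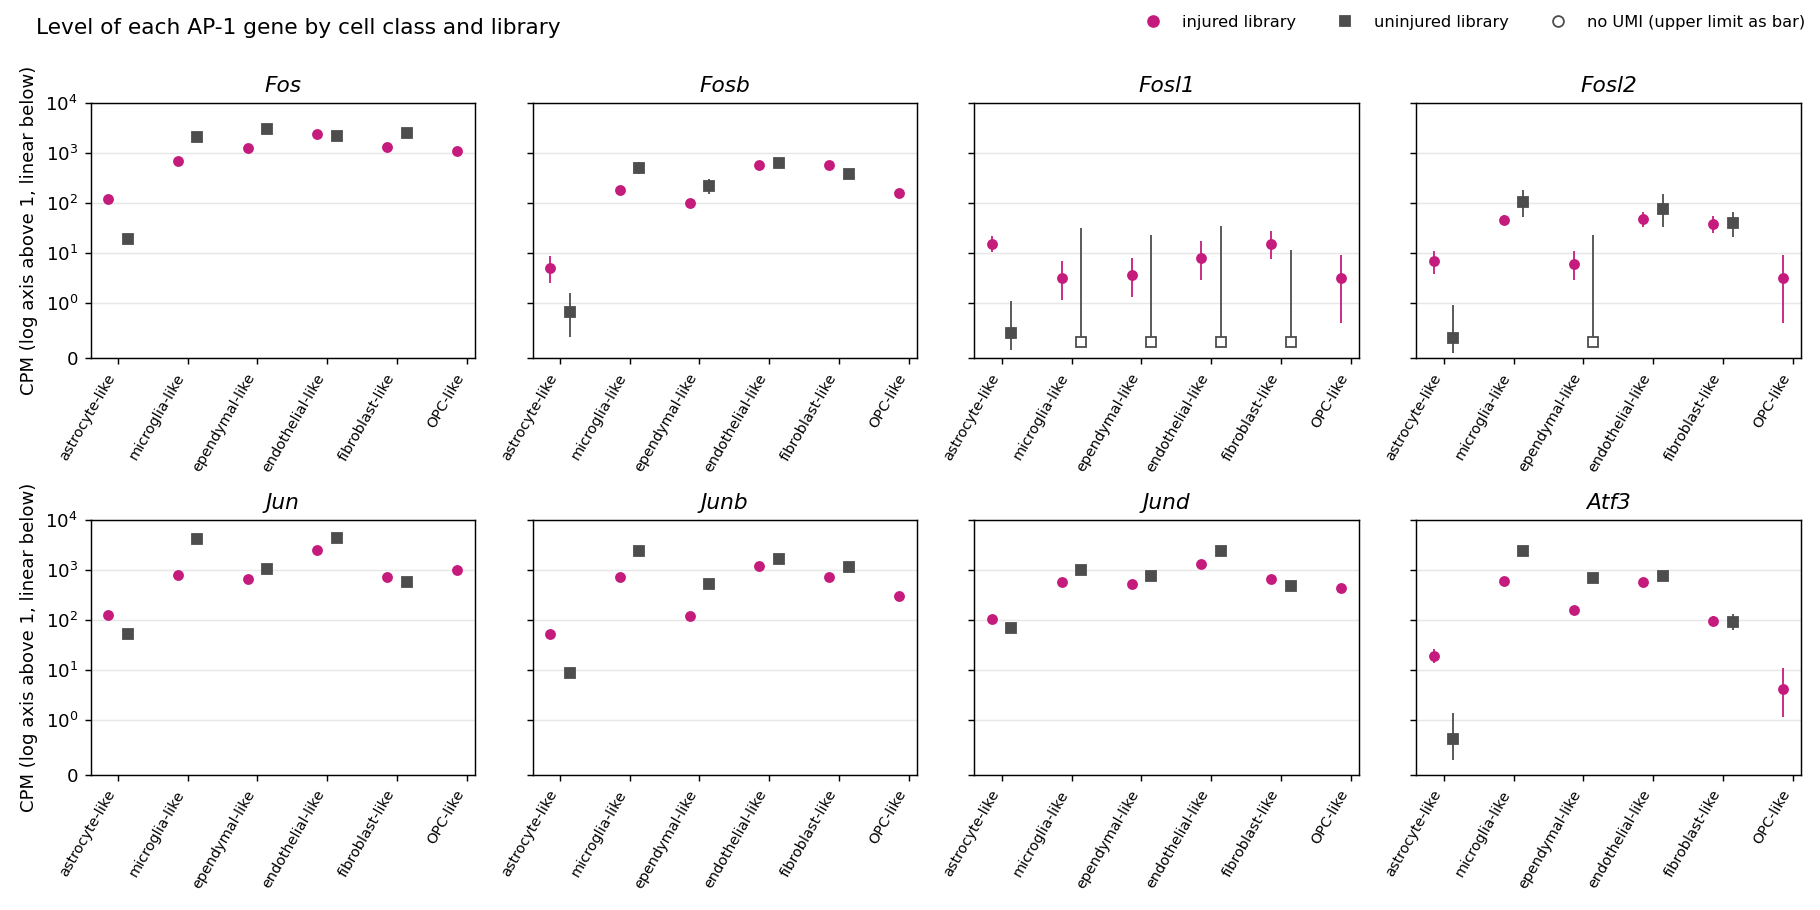
Level of each AP-1 gene in each cell class, in CPM on an axis that is logarithmic above 1, with circles for the injured and squares for the uninjured library, 95% Poisson intervals as bars and open symbols where no UMI was found. Astrocyte-like cells were the lowest class for 5 of the 8 genes in the injured library, while Fosl1 was highest there and in fibroblast-like cells.

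AP-1 RNA was also unevenly spread within injured astrocyte-like cells. The tenth of cells richest in a gene held 89.0% of all Fos, 75.0% of all Jun and 65.2% of all Jund UMIs, and 1 cell of 25551 gene UMIs alone held 92 of the 272 Fos, 38 of the 276 Jun and 8 of the 42 Atf3 UMIs. This cell was astrocyte-like in 4 of the 7 clusterings run and OPC-like, ependymal-like or fibroblast-like in the others, and it held 57 UMIs of 6 astrocyte markers, 19 of 3 neuron markers and 6 of 5 ependymal markers. Without a filter on cells, where it was ependymal-like, the level in astrocyte-like cells was 81.2 CPM for Fos and 107 CPM for Jun. Over the 345 of 386 injured astrocyte-like cells that were astrocyte-like in every clustering they entered, a choice made after the data were seen, Fos was at 61.1 CPM, Jun at 98.3, Jund at 81.5, Junb at 46.3, Fosl1 at 16.3 and Atf3 at 15.3 CPM. After every cell was thinned to 1000 gene UMIs, the share of astrocyte-like cells with Jun was 11.1% injured and 4.36% uninjured, with Jund 9.69 and 6.27%, with Fos 5.98 and 1.81%, and with Junb 4.84 and 0.567%. Before thinning, Fos was found in 17.9% and Jun in 27.5% of injured astrocyte-like cells. At least 3 of the 8 genes were found together in 9 of 351 thinned injured astrocyte-like cells (2.56%, 1.18 to 4.81%) and in 2 of 2823 uninjured ones (0.0708%). In injured endothelial-like cells that share was 47.8%, in OPC-like 41.5%, in microglia-like 33.9%, in fibroblast-like 32.5% and in ependymal-like cells 19.0%.

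RNA freed from other cells can reach an astrocyte droplet, so genes that define other classes were read in astrocyte-like cells as a yardstick. In the injured library the level in astrocyte-like cells was 0.181% of the microglia-like level for C1qa, 0.366% for C1qb and 0.401% for Tyrobp, 0.0660% of the endothelial-like level for Cldn5 and 0.0707% of the fibroblast-like level for Dcn. The AP-1 genes in astrocyte-like cells stood above this, between 0.846% (Fosb) and 14.1% (Fosl2) of the class in which each was highest, with Fosl1 apart. In the uninjured library the yardstick ran from 0.0041 to 0.0520%, and Atf3 at 0.0280% of its microglia-like level lay inside it, so its 7 UMIs there were not read as expression. Over the 320 injured and 2838 uninjured astrocyte-like cells without a UMI of these genes, Fos was at 104 and 18.5 CPM, Jun at 117 and 51.9, Jund at 96.0 and 67.0, and Atf3 at 17.7 and 0.575 CPM. Fosb fell further, to 2.35 CPM (0.642 to 6.03, 4 UMIs) in these injured cells from 4.97 CPM in all injured astrocyte-like cells. Fosl2 was at 4.71 CPM (2.03 to 9.28, 8 UMIs) against 6.78, and Fosl1 at 16.5 against 15.4 CPM. The intervals of Fosb and Fosl2 include their levels in all injured astrocyte-like cells. Summed microglia markers in injured astrocyte-like cells were 182 CPM with 1 of 10 at 0, endothelial markers 19.4 CPM with 2 at 0, and fibroblast markers 118 CPM with 3 at 0.

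Set against all other classes of at least 20 cells pooled, 7 of the 8 genes were lower in injured astrocyte-like cells and 1, Fosl1, was higher. A gene counts as past 2-fold where its log2 ratio, with 1 CPM added to both levels, is at or beyond 1. Of all genes tested in this comparison 11.8% were that much higher and 25.9% that much lower. The ratio was lowest for Fosb at 0.0199, then Atf3 at 0.0610, Junb at 0.0980, Fos at 0.102 (0.0899 to 0.115), Jun at 0.127 and Jund at 0.159, with Fosl2 at 0.249. In the uninjured library all 7 members with enough UMIs were lower, beside 27.2% of all genes, and Jund was again nearest to the other classes among the abundant ones, at a ratio of 0.0760 against 0.0287 for Jun and 0.00779 for Fos. None of Fos, Fosb, Fosl2, Jun, Junb, Jund or Atf3 was therefore higher in astrocyte-like cells than in the pooled classes of either library.

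**Figure D2:**
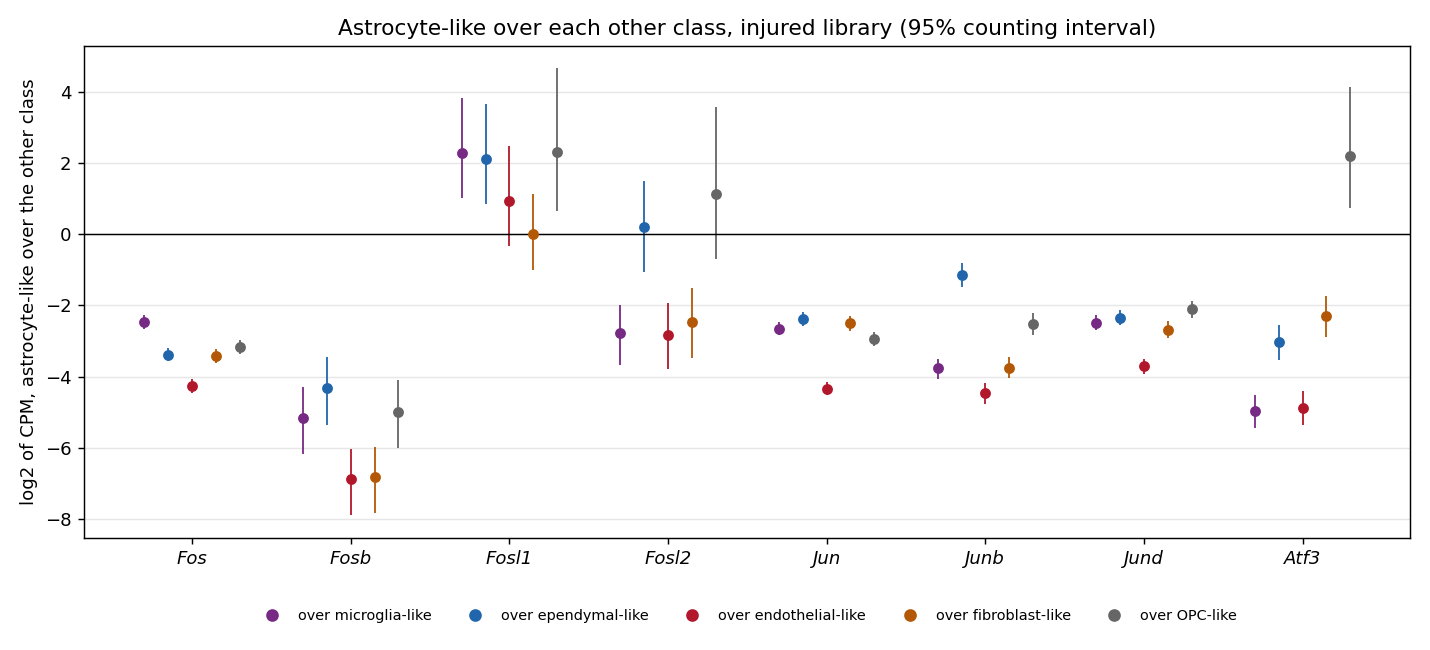
Level in astrocyte-like cells over that in each other class of the injured library, as log2 of the ratio of CPM with nothing added and 95% counting intervals as bars, where 0 is no difference. Fos, Fosb, Jun, Junb and Jund lie below 0 against every class, Atf3 lies above 0 against OPC-like cells alone, and the Fosl1 ratio to fibroblast-like cells is 1.01.

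Fosl1 was the exception, and its place depended on which cells were counted. Its level in injured astrocyte-like cells was 2.89 times (1.73 to 4.83) that of the other classes pooled. Against single classes it was higher than in microglia-like cells by 4.84-fold (2.01 to 14.1), than in ependymal-like cells by 4.31-fold (1.79 to 12.6) and than in OPC-like cells by 4.97-fold (1.56 to 25.3), while the ratio to endothelial-like cells was 1.92 (0.796 to 5.59) and to fibroblast-like cells 1.01 (0.499 to 2.21). Fosl1 was therefore shared with fibroblast-like cells and not particular to astrocyte-like ones.

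The upper limit of 50000 gene UMIs, taken from the study, had removed 40 injured cells. When all cells were clustered, 38 of these were fibroblast-like, and they held 107 Fosl1 UMIs in 27 cells, which was 33.6 CPM (27.5 to 40.6). Their other AP-1 levels included 486 CPM of Fos, 649 of Jun and 610.0 of Junb. Without the filter the Fosl1 ratio of astrocyte-like cells to all other classes became 1.03 (0.688 to 1.51) and that to fibroblast-like cells 0.508 (0.336 to 0.750), from 34 and 118 UMIs. The higher Fosl1 of astrocyte-like cells over the pooled classes thus did not hold without the filter, where fibroblast-like cells had the higher level. The counts of removed cells and all values of cells holding Fosl1 were added after the data were seen.

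**Figure D3:**
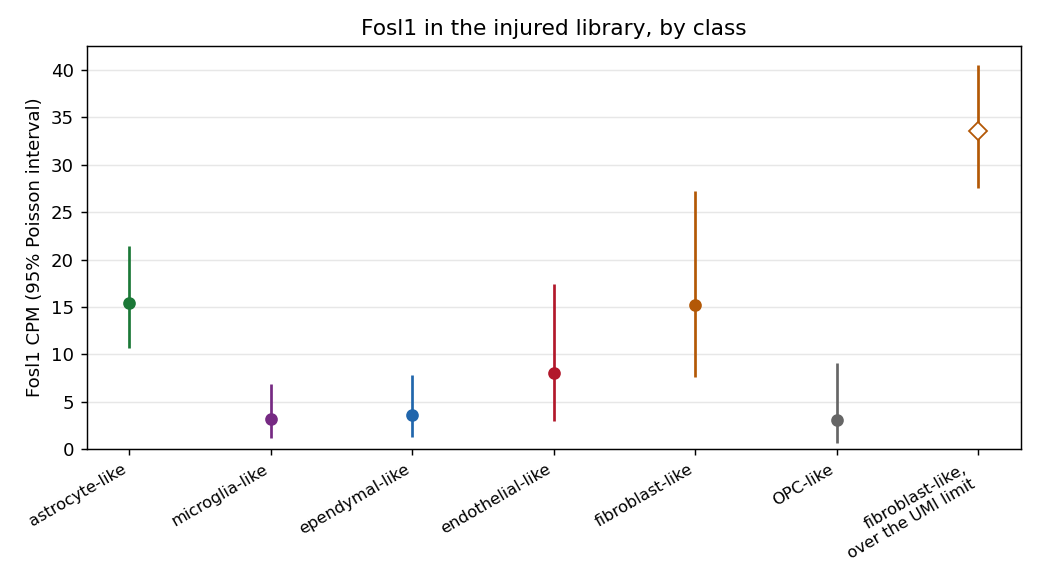
Fosl1 in the injured library in CPM, with 95% Poisson intervals as bars, by class, and as an open diamond in the 38 fibroblast-like cells over the UMI limit. Astrocyte-like and fibroblast-like cells within the limit had 15.4 and 15.2 CPM, and the cells over it 33.6 CPM.

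The 34 Fosl1 UMIs of injured astrocyte-like cells came from 20 cells, of which 14 had a single UMI and the richest had 7. All 20 lay in the astrocyte-like cluster led by Gfap, Lcn2 and Timp1, to which 341 of the 386 injured cells and 16 uninjured ones belonged. Atf3 was found in 9 of the 20 (45%) and in 2.73% of the other 366 cells, and Jun in 15 (75%) and 24.9%. Their astrocyte markers summed to 3519 CPM against 11438 CPM in the others, with none of the 10 at 0. The water channel gene Aqp4 was at 574 against 2346 CPM and the filament gene Gfap at 1409 against 2931, while Vim, another filament gene, was at 4284 against 1759 and Timp1, a metalloproteinase inhibitor, at 822 against 278 CPM. Sox9, an astrocyte lineage factor, was close, at 274 and 320 CPM. Lcn2 was at 25.5 against 261 CPM, and Gfap was found in 60% of the 20 cells and 91.5% of the others. Summed markers were higher in the 20 cells for neurons (542 against 204 CPM), mural (472 against 190), Schwann (191 against 142), fibroblast (172 against 114) and endothelial cells (44.6 against 17.5). Those of microglia, ependymal cells, OPCs and oligodendrocytes were lower. Lymphocyte and neutrophil markers had 3 and 1 UMIs there. Median depth was 5109 gene UMIs in the 20 cells and 3863.5 in the others. These cells were picked by their Fosl1 reads, so the values describe them and test nothing, and whether some were of another class was not tested beyond the marker levels.

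Between conditions, astrocyte-like cells were the class with higher AP-1 levels in the injured library, and microglia-like and ependymal-like cells had lower ones. In astrocyte-like cells 7 of the 8 genes were past 2-fold higher, beside 14.2% of all genes tested, and none was that much lower (8.74% of all genes). The eighth, Jund, was at 101 CPM injured and 67.9 CPM uninjured, a ratio of 1.49 (1.28 to 1.73).

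In astrocyte-like cells Fos went from 19.4 CPM (16.9 to 22.3) uninjured to 123 CPM injured, a ratio of 6.32 (5.26 to 7.61). The log2 ratio with 1 CPM added was 2.60, and 2.07 without the richest cell of either library. Over the 345 injured and 2709 uninjured cells that were astrocyte-like in every clustering they entered, the Fos ratio was 3.36 (2.64 to 4.25) and the Jun ratio 1.89 (1.59 to 2.23), so that Jun was no longer past 2-fold and 6 of the 8 genes were. Junb, with 8.42 CPM (6.77 to 10.3) uninjured and 52.4 injured, had a ratio of 6.23 (4.69 to 8.30), and Jun, with 52.1 CPM (47.8 to 56.6) and 125, one of 2.40 (2.07 to 2.77). The rarer genes had larger but looser ratios. Fosl1 came from 5 UMIs in 2 uninjured cells, or 0.468 CPM, and its ratio was 32.9 (12.8 to 108). Atf3 had 42 UMIs injured and 7 uninjured, and since those 7 were not read as expression it is given as at least 12.9-fold higher, the lower end of the interval of its ratio. The 42 UMIs came from 19 cells, whose astrocyte markers summed to 5479 CPM against 11237 in the other 367. Gfap was found in 52.6 and 91.8% of these. Neuron markers were at 801 against 190 CPM, ependymal at 144 against 122 and endothelial at 36.1 against 18.3. Lymphocyte and neutrophil markers had 2 and 1 UMIs there, and markers of the other classes were lower. Whether some of these cells, picked by their Atf3 reads, were of another class was not tested. Fosl2, from 4 UMIs or 0.374 CPM, had a ratio of 18.1 (5.78 to 75.0), and Fosb, from 0.842 CPM, one of 5.91 (2.23 to 16.1).

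The make-up of each family differed as well. Fosl1 was 10.2% (7.20 to 14.0%) of Fos-family UMIs in injured astrocyte-like cells and 2.21% (0.722 to 5.09%) in uninjured ones, while Fos was 81.9 and 92.0%. In the other injured classes Fosl1 was 0.243 to 0.789% of the family. Among Jun-family UMIs of astrocyte-like cells Junb was 18.8% (15.8 to 22.1%) injured and 6.55% (5.30 to 8.0%) uninjured, and Jund 36.4 and 52.9%.

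The injured and uninjured astrocyte-like cells were largely different clusters, since 1 cluster held 341 of the 386 injured and 16 of the 2889 uninjured cells. Among uninjured cells the astrocyte-like clusters spanned 29.8 to 66.8 CPM of Jun, 32.6 to 95.4 of Jund and 9.70 to 27.1 of Fos. The Gfap-led cluster of the injured library had 131 CPM of Jun, 127 of Fos, 20.2 of Atf3 and 16.3 of Fosl1. Over cells scored male, since the uninjured library had almost no cells scored female, the injured and uninjured levels in astrocyte-like cells were 191 and 18.6 CPM for Fos, 154 and 53.1 for Jun, 54.7 and 8.35 for Junb, 119 and 66.6 for Jund, 25.9 and 0.726 for Atf3, and 12.9 and 0.605 for Fosl1.

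Microglia-like cells went the other way. In them 6 of the 7 genes with enough UMIs were past 2-fold lower in the injured library, beside 17.2% of all genes, and none was past 2-fold higher, beside 23.6%. Of all genes past 2-fold 57.9% were higher, or 68.7% with median-of-ratios scaling, which raised each log2 difference in this class by 0.21 and turned no AP-1 gene. Jun went from 4217 CPM (3853 to 4606) uninjured to 784 CPM injured, a ratio of 0.186 (0.168 to 0.206), and Atf3 from 2335 to 593 CPM, a ratio of 0.254 (0.222 to 0.291). Junb went from 2403 to 715 CPM (ratio 0.297), Fos from 2087 to 683 (0.327), Fosb from 505 to 178 (0.353) and Fosl2 from 103 to 46.6 CPM (0.454, 0.247 to 0.911). Jund, from 984 to 567 CPM (0.577), was lower but not past 2-fold. Fosl1 had 6 UMIs injured and none uninjured, a difference that was not detectable at this depth. The uninjured values rest on 31 cells with a median of 3169 gene UMIs, against 126 cells with 14070.5 injured. With every cell thinned to 1000 gene UMIs, the log2 difference with 1 CPM added was -2.05 for Jun, -2.11 for Atf3 and -1.53 for Fos, against -2.43, -1.98 and -1.61 unthinned.

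Ependymal-like cells, the ciliated lining of the central canal, had 4 genes past 2-fold lower, beside 12% of all genes. All genes past 2-fold were higher in 56.1% of cases, or in 66.2% with median-of-ratios scaling, a shift of 0.14. Junb went from 511 to 116 CPM (ratio 0.227), Atf3 from 669 to 156 (0.233), Fos from 3047 to 1288 (0.423, 0.383 to 0.468) and Fosb from 215 to 99.2 CPM (0.463). Jun, from 1016 to 652 CPM (0.642), and Jund, from 751 to 515 CPM (0.686), were lower but not past 2-fold. Fosl2 had 10 UMIs injured and none uninjured and was counted as past 2-fold higher on the log2 scale with 1 CPM added, where 15.4% of all genes were, but the exact interval of its ratio reached down to 0.211 and no fold is given.

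In the remaining paired classes the genes differed little between conditions. None of 7 was past 2-fold either way in endothelial-like cells, where 14.4% of all genes were higher and 10.9% lower. Fos was at 2207 and 2366 CPM there, uninjured then injured, a ratio of 1.07 (0.935 to 1.23), while Jun, at 4226 and 2527 CPM (0.598, 0.539 to 0.664), and Jund, at 2321 and 1331 CPM (0.574), were lower. In fibroblast-like cells none was past 2-fold lower (13.0% of all genes) and 1 of 8, Fosl1, was past 2-fold higher (14.5%), with 11 UMIs against none. Its level was 1.67 times a floor of 3 UMIs, and the exact interval of its ratio reached down to 1.14. Fos was lower, at 2469 and 1314 CPM (0.532), as was Junb, at 1139 and 704 CPM (0.619). Fosb, at 387 and 567 CPM (1.47, 1.20 to 1.80), Jund, at 469 and 649 CPM (1.38), and Jun, at 572 and 708 CPM (1.24), were higher by less than 2-fold, and Atf3, at 91.3 and 94.3 CPM, had a ratio of 1.03 (0.662 to 1.64).

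**Figure D4:**
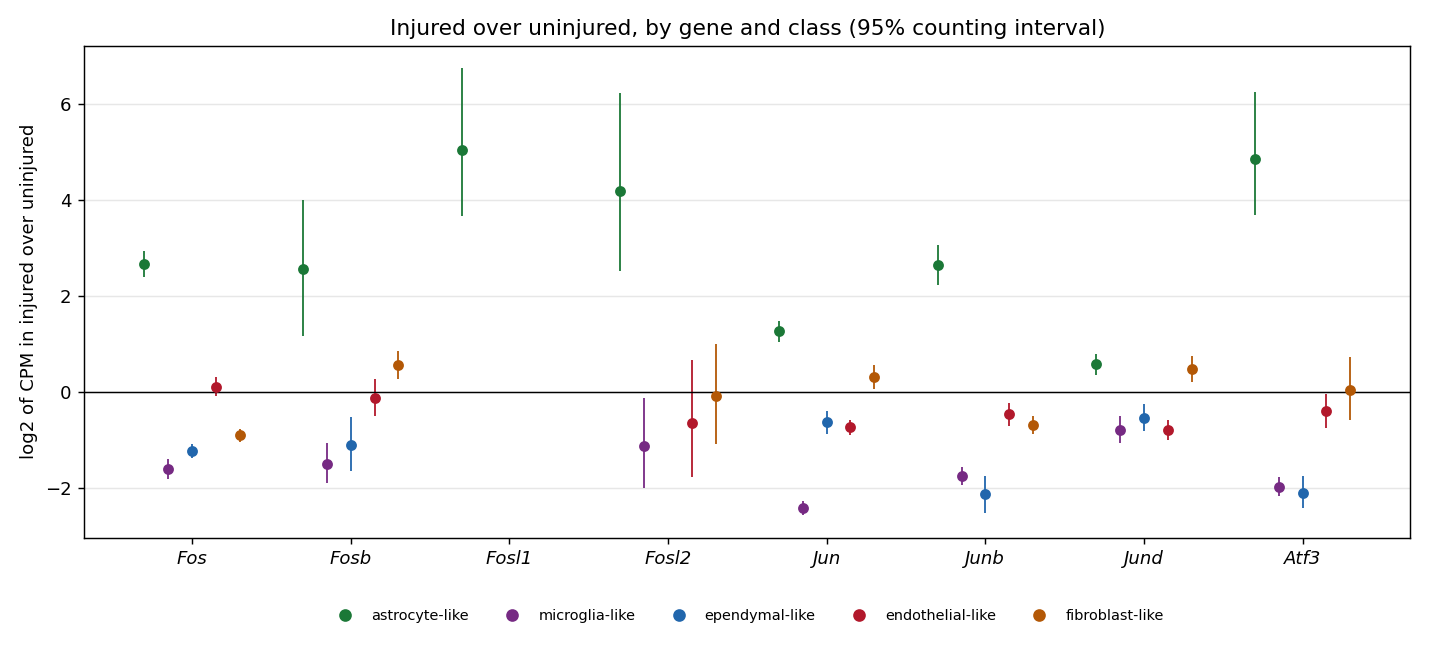
Injured over uninjured level of each gene in each class with enough cells in both libraries, as log2 of the ratio of CPM with nothing added and 95% counting intervals as bars, for pairs with UMIs in both. Every gene in astrocyte-like cells lies above 0, and every gene in microglia-like and ependymal-like cells lies below 0.

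The difference between classes in these changes was compared by an interval from the Poisson variance of the 4 counts, as astrocyte-like minus other class on the log2 scale. Against microglia-like cells it was 4.39 for Junb, 4.27 (3.95 to 4.60) for Fos, 4.06 for Fosb, 3.69 for Jun and 1.37 for Jund, and for Atf3 at least 5.67 by the lower end of its interval. Against fibroblast-like cells it was 0.95 for Jun and for Jund 0.11 (-0.23 to 0.45), an interval that spans 0. Jund also had the smallest spread of log2 ratios over the 5 classes, from -0.80 to 0.57. In both libraries each class came from the same digestion, and the animals of each condition were pooled, so these intervals do not include differences between preparations.

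Other immediate early genes were read in the same classes, from a list of 27 genes outside AP-1 such as Egr1, Ier2 and Btg2. They summed to 1936 CPM in injured and 840 CPM in uninjured astrocyte-like cells, and to 6949 and 16456 CPM in microglia-like, 3418 and 5154 in ependymal-like, 15145 and 16310 in endothelial-like, and 7351 and 6354 CPM in fibroblast-like cells. Like the AP-1 sum, this sum was lowest in astrocyte-like cells and was lower in injured than in uninjured microglia-like, ependymal-like and endothelial-like cells. In fibroblast-like cells the sums went opposite ways, since the AP-1 sum there was 4090 CPM injured and 5166 CPM uninjured. What share of either came from dissociation was not tested, since no library without digestion was analysed here.

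To see which AP-1 genes went with these genes from cell to cell, the cells of each class and library were divided at the median of the share of their UMIs from the list. In injured astrocyte-like cells 6 of the 8 genes were past 2-fold higher in the upper group, beside 10.6% of all genes. On the log2 scale with 1 CPM added, the difference was 3.00 for Fos (245 against 27 UMIs), 2.88 for Junb, 2.44 for Jun, 3.18 for Atf3 (39 against 3 UMIs), 3.92 for Fosl1 (33 against 1) and 2.31 for Fosb (10 against 1). Jund, at 0.82, and Fosl2, at 0.40, were not past 2-fold. The upper group included the 1 cell described above with 92 Fos, 38 Jun and 8 Atf3 UMIs, and this division was not repeated without it. The list summed to 2963 CPM in the upper and 811 CPM in the lower group, median depth was 3639 and 4143 gene UMIs, and 31 cells lay within 10% of the median.

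The other injured classes had a similar count. In microglia-like cells 6 of 7 were past 2-fold higher in the upper group (6.60% of all genes), in ependymal-like cells 6 of 7 (4.66%), in endothelial-like cells 6 of 7 (7.15%), in fibroblast-like cells 8 of 8 (11.2%) and in OPC-like cells 5 of 5 (6.19%). Fos differed by 2.06 in microglia-like, 2.66 in ependymal-like and 3.69 in endothelial-like cells, and Jun by 2.46, 2.46 and 3.44. Atf3 differed by 2.26, 3.77 and 3.58 in these classes, and in fibroblast-like cells all of its 68 UMIs were in the upper group. Jund differed by 0.87 in ependymal-like, 1.82 in fibroblast-like, 2.01 in microglia-like and 2.49 in endothelial-like cells. Fosl2 was under 2-fold in microglia-like (0.87) and endothelial-like cells (0.38). In uninjured astrocyte-like cells only Fos was past 2-fold, at 1.75, of 4 genes with enough UMIs (0.854% of all genes), with Junb at 0.89, Jund at 0.67 and Jun at 0.64, whereas 6 of 7 were in uninjured fibroblast-like cells (13.5%). Of the genes whose promoters are printed above, Fos, Jun, Junb and Atf3 were each past 2-fold in injured astrocyte-like, microglia-like, ependymal-like and endothelial-like cells. Fosb, whose promoter is not printed, was past 2-fold in these classes as well.

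**Figure D5:**
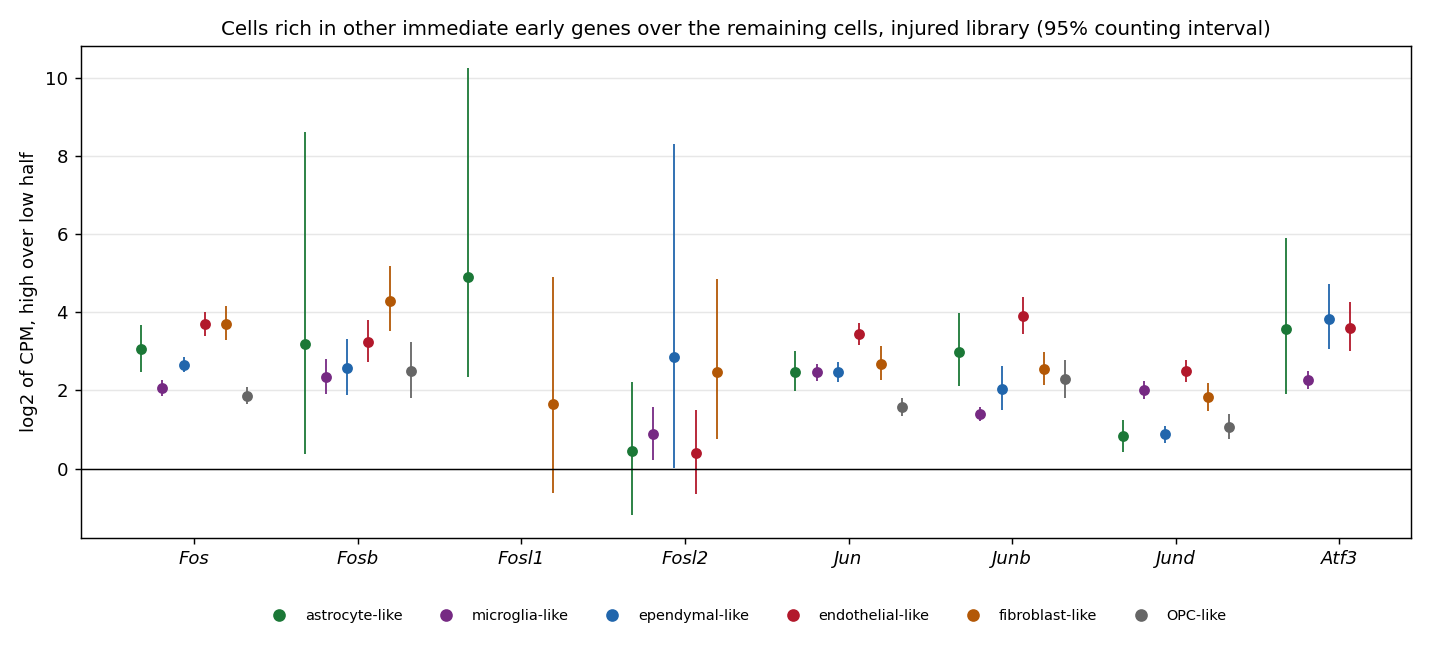
Level of each AP-1 gene in the cells richer in other immediate early genes over that in the remaining cells of the same class, injured library, as log2 of the ratio of CPM with nothing added and 95% counting intervals as bars, for pairs with UMIs in both groups. Fos, Fosb, Jun and Junb lie above 1 in every class, and Jund and Fosl2 lie nearest to 0 in astrocyte-like cells.

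Over 11 class and library sums of at least 20 cells, the profile of log2(CPM + 1) of each AP-1 gene was compared with every other gene by Pearson's r, as a description of points that share libraries. Closest to Junb were the immediate early genes Ier2 (0.989) and Ppp1r15a (0.969), a phosphatase subunit of the stress response. Fos was closest to the amino acid transporter gene Slc38a2 (0.977) and to Egr1 (0.951), Fosb to Dnttip2 (0.963) and Ier2 (0.957), and Atf3 to the interleukin receptor gene Il6ra (0.970) and the autophagy receptor gene Sqstm1 (0.965). Jun was closest to Rlim (0.953) and Gnas (0.946), Jund to Gnas (0.978) and Klf4 (0.970), and Fosl2 to Ifnar2 (0.968) and Tgm2 (0.966). Fosl1 had r between -0.25 and 0.06 to the other AP-1 genes, where Fos and Fosb had 0.947 and Fos and Jun 0.867. Depth limits these values, since uninjured microglia-like, ependymal-like, endothelial-like and fibroblast-like sums held no Fosl1 UMI. A count of 3 UMIs there would be 25.7, 18.9, 28.3 and 9.13 CPM, against 15.4 CPM in injured astrocyte-like cells. The low r therefore does not show that Fosl1 followed another pattern. The genes closest to Fosl1 were Atp5md (0.919) and Xist (0.902), the latter a gene of female cells, whose share differed between the libraries.

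The lists of related genes give the setting of the AP-1 values in astrocyte-like cells. Of 25 other immediate early genes tested between conditions, 17 were past 2-fold higher in injured cells and 0 lower, beside 14.2 and 8.74% of all genes. Their median log2 difference was 1.46, against 0.016 over all genes and 2.50 over the AP-1 genes. Socs3, a cytokine signalling inhibitor, was at 31.2 CPM injured and 1.12 uninjured, Ier3 at 26.2 and 2.15, and Gadd45b at 52.4 and 5.52 CPM, while the phosphatase gene Dusp1 was at 13.1 and 25.1 CPM. In microglia-like cells 0 of 26 were higher and 15 lower (median -1.17), beside 23.6 and 17.2% of all genes. In ependymal-like cells 4 of 25 were higher and 10 lower, beside 15.4 and 12% of all genes. In endothelial-like cells 4 of 26 were higher and 1 lower, beside 14.4 and 10.9%. In fibroblast-like cells 8 of 27 were higher and 2 lower, beside 14.5 and 13.0%. The higher counts in ependymal-like and endothelial-like cells were thus near the share of all genes. The AP-1 medians in microglia-like, ependymal-like, endothelial-like and fibroblast-like cells were -1.61, -1.10, -0.47 and 0.18. Within the injured library 24 of the 27 were past 2-fold lower in astrocyte-like cells than in the other classes pooled and 0 higher. These counts stand beside 25.9 and 11.8% of all genes, and the median was -2.99, against -3.13 for the AP-1 genes.

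Genes of the leucine zipper factors that can pair or compete with AP-1 had a median nearer to that of all genes (log2 difference 0.16 in astrocyte-like cells). In injured astrocyte-like cells 8 of 23 were past 2-fold higher and 2 lower, beside 14.2 and 8.74% of all genes, so the lower count was near its share. Cebpd, at 178 and 5.33 CPM injured and uninjured, Cebpb, at 28.9 and 1.78, and Atf5, at 56.1 and 12.1 CPM, were the highest by ratio, and the repressor gene Bach2, at 89.1 and 296 CPM, the lowest. In microglia-like cells 0 of 23 were higher and 9 lower, beside 23.6 and 17.2% of all genes. Kinases, phosphatases and serum response genes upstream of AP-1 were close to the median of all genes in astrocyte-like cells (median -0.09). Of 29 tested, 3 were higher and 2 lower, which is no more than the 14.2 and 8.74% of all genes. These included the MAP kinase phosphatase gene Dusp5 at 12.7 and 0.842 CPM, Dusp3 at 39.3 and 15.1, the ERK gene Mapk3 at 33.9 and 15.7, and the p38 activator gene Map2k6 at 39.8 and 110 CPM.

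Of genes known as AP-1 targets, 16 of 19 were past 2-fold higher and 0 lower in injured astrocyte-like cells (median 2.96), beside 14.2 and 8.74% of all genes. Timp1 had 701 UMIs injured and 1 uninjured, a log2 ratio of 9.24 to 17.0 by its interval, and the galectin gene Lgals3 660 and 2, or 8.78 to 13.7. Vim was at 1938 and 8.14 CPM, and the membrane protease gene Mmp14 was the lowest of the list, at 73.7 and 68.8 CPM. In fibroblast-like cells 17 of 23 were past 2-fold higher and 0 lower (median 2.43, beside 14.5 and 13.0% of all genes), in ependymal-like cells 9 of 16 and 0 (2.23, beside 15.4 and 12%), and among endothelial-like cells 7 of 15 and 0 (0.92, beside 14.4 and 10.9%). In microglia-like cells 6 of 20 were higher and 4 lower (0.16), shares near the 23.6 and 17.2% of all genes. The list was chosen with earlier results of these data known. It holds Timp1 and Hmox1, which are among the leading genes of the Gfap-led cluster, so its counts describe the list and test nothing. These genes have many other regulators, and whether AP-1 bound near any of them was not measured here.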

How the data were processed

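The authors deposited 1 filtered matrix per condition of raw UMI counts of genes and 23 enhancer features, which were not used here. Per the file headers Cell Ranger 7.1.0 made these counts, the submitters' processing notes give 8.0.1 and mm10. The counts carried no normalisation or correction for free RNA. The study's UMI limits (500 and 50000) and 15 components were kept. Cells were clustered together with scanpy 1.11.5 and igraph 0.11.9 in Python 3.11.15 (scale 10000, 2000 variable genes, 15 neighbours, Leiden resolution 0.5), leaving out the 8 AP-1 genes, the 2 added sequences and the enhancer features. A cluster took 1 of 12 class names by its marker score (above 0.2), if 3 markers were found in 10% of its cells and no other class led its 10 top genes. Scrublet marked 2 cells, so it had not worked, and no doublets were removed.

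UMIs were summed per class and library and divided by total gene UMIs. Sums have exact Poisson, shares Clopper-Pearson and ratios conditional binomial 95% intervals (scipy 1.17.1, numpy 2.4.6), which cover counting error only. Genes with at least 10 UMIs over both groups were tested against 2-fold, and a group at 0 was set to 3 counts. Classes needed 20 cells in both libraries for the comparison between conditions, and 20 in the library at hand for that between classes. Pooled classes thus included OPC-like cells in the injured library alone and mural-like cells in neither. The division by immediate early genes needed 40 cells of a class in a library. Figures used matplotlib 3.10.9. On simulated astrocyte-like counts (11422 genes, 200 changed 4-fold) the direction was recovered for 100% and 98% passed 2-fold. On simulated microglia-like counts (5330 genes) these were 99% and 93.5%, and 9.90% of unchanged genes passed 2-fold. The simulations drew counting error alone and used a higher UMI minimum than the 10 of the comparisons. In astrocyte-like cells Fosb, Fosl1, Fosl2 and Atf3 lay below that minimum, so these rates do not cover them.

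The text names the 8 genes, the 3 highest and 1 lowest genes of each list by ratio in astrocyte-like cells, and the 2 genes most like each AP-1 gene, among genes with 100 UMIs. The genes, lists and markers were chosen with earlier results of these data known. Alternatives changed the pseudocount, scaling, cell filter, clustering, depth, sex of cells, doublets, weights and split.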

Additional observations from a re-analysis of the deposited data

Results flagged for a closer look

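In astrocyte-like cells each of the 8 genes was higher in the injured library, and the following genes were lower there in another class, so that the direction differed between classes. With 1 library per condition these differences between classes were not tested, and their counting intervals are those given above. All values are log2 of injured over uninjured with 1 CPM added. In microglia-like cells the values were -2.43 for Jun, -1.98 for Atf3, -1.75 for Junb, -1.61 for Fos, -1.50 for Fosb, -1.12 for Fosl2 and -0.79 for Jund. In ependymal-like cells they were -2.13 for Junb, -2.10 for Atf3, -1.24 for Fos, -1.10 for Fosb, -0.64 for Jun and -0.54 for Jund. In endothelial-like cells they were -0.80 for Jund, -0.74 for Jun, -0.47 for Junb and -0.41 for Atf3. In fibroblast-like cells they were -0.91 for Fos and -0.69 for Junb. Uninjured microglia-like, ependymal-like and endothelial-like cells numbered 31, 31 and 26, and the median depth of microglia-like cells was 3169 gene UMIs uninjured and 14070.5 injured. The part of cell number, depth, sex mix and preparation in these differences was not tested beyond the alternatives described next.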

How the results depend on the processing

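No paired analysis was possible because the labels give 1 gene library per condition. Among counts of genes past a threshold, 188 values under an alternative were within 1.5 times the reported count and 30 were not, and of the values of single AP-1 genes 697 stayed within their interval, 168 moved and 7 reversed. The values of astrocyte-like cells between conditions kept their direction under every alternative, with log2 ranges of 1.69 to 3.29 for Fos, 0.90 to 1.52 for Jun, 1.28 to 3.95 for Fosl1, 1.44 to 3.96 for Atf3 and 0.47 to 2.86 for Fosb. With 10 CPM added, the count past 2-fold higher was 0 in ependymal-like cells and 0 for astrocyte-like over other classes. With no filter on cells, the latter was again 0, as described for Fosl1, and 1 gene was past 2-fold lower in fibroblast-like cells, as were 2 without the 5% of cells with the highest Scrublet scores. With cells thinned to 1000 gene UMIs, 3 genes were past 2-fold higher in astrocyte-like, 0 in ependymal-like and 0 in fibroblast-like cells, with 1 lower in the last, since fewer genes then reach 10 UMIs. In the comparison by other immediate early genes thinning gave 3 of the genes in injured astrocyte-like, 3 in ependymal-like, 5 in fibroblast-like and 2 in OPC-like cells. Thinning left Fosl2 in ependymal-like and Fosl1 in fibroblast-like cells at a log2 difference of 0 between conditions, and Fosb and Fosl2 in ependymal-like and Fosl1 and Fosl2 in fibroblast-like cells at 0 in the comparison by immediate early genes. Among cells scored male, the counts in ependymal-like cells were 0 higher and 2 lower and in fibroblast-like cells 0 and 1, and Fosb in ependymal-like cells turned to 0.99. The cause was not tested. Without the 1 cell richest in each gene, 0 were higher in ependymal-like cells, and 0 were higher and 1 lower in fibroblast-like cells. In uninjured astrocyte-like cells 2 genes were past 2-fold when only the cells at the outer ends of the list's share were compared and 2 without heat shock genes in the list. Clustering at resolution 1.0, with the AP-1 genes kept in, without the immediate early list, or with the unnamed clusters counted as astrocyte-like left each of these counts within 1.5 times the reported one, as did median-of-ratios scaling (shifts of 0.12 in endothelial-like, -0.03 in astrocyte-like and -0.02 in fibroblast-like cells, and 0.15 for astrocyte-like over other classes), a minimum of 1000 gene UMIs, and leaving out astrocyte-like cells with RNA of other classes. Restricting astrocyte-like cells to those so named in every clustering did too, with 6 genes past 2-fold higher in them. This restriction, the one on RNA of other classes and the use of the unnamed clusters were chosen after seeing the data. With no filter on low counts, all genes past 2-fold numbered 4939 higher and 2850 lower in microglia-like, 4037 and 2576 in ependymal-like, 4384 and 2422 in endothelial-like, and 3779 and 3044 in fibroblast-like cells. Depth limits Fosl1, since outside astrocyte-like cells no uninjured class with 20 cells or more held a UMI of it.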
